A study of Homo sapiens with 6 samples.

Results

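The genes described are those of the mitochondrial respiratory chain and the ATP synthase, together with the assembly factors that share their names. A gene was taken by its symbol if that symbol began with NDUFA, NDUFB, NDUFC, NDUFS or NDUFV, with SDHA to SDHD, UQCR or UQCC, with COX and a digit or with ATP5, or if it was CYC1 or CYCS. Only probe sets annotated with a single gene were used, and where a gene had several, the one brightest on average was kept. This gave 104 members among the 11584 genes measured, of which 99 are nuclear genes for proteins, 3 (COX1, COX2 and COX3) are encoded by mitochondrial DNA, and NDUFB2-AS1 and NDUFV1-DT are long non-coding RNAs that share only the name of a neighbouring subunit gene. Within the deposited probe sets the symbols chose the genes, and measured levels decided which probe set stood for a gene that had several. The deposited probe sets are part of the array, and 13007 of 13008 lay above 5 on at least 2 arrays. Level may thus have decided which genes could be members, and the list was set with earlier results of these data known. A further 11 probe sets name a member or a pseudogene of one beside another gene and were left out. Among the genes that the symbols cover, SDHB, UQCRFS1, UQCRH, NDUFS5, NDUFS8, NDUFC2, NDUFA4, COX17 and ATP5MF were not analysed here.

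The study depleted LIN28B, which keeps let-7 microRNA precursors from maturing and also binds many mRNAs, and asked how transcript levels respond. All cells were of the HEK293 T-REx Flp-In line, a human embryonic kidney line, with a stably integrated FLAG/HA-tagged LIN28B gene under doxycycline control. Total RNA was measured on 6 Affymetrix U133 Plus 2.0 arrays, 2 in each group: cells transfected with siRNA against LIN28B and not induced (knockdown), mock-transfected cells with the transgene induced, and mock-transfected cells without induction. The mock cells received no non-targeting siRNA as far as the labels say, so siRNA transfection and loss of LIN28B cannot be told apart. Induction is given only for cells that were crosslinked (doxycycline, 250 ng/ml, 15 to 20 h), and no time for the RNA samples. Whether the 2 arrays of a group hold RNA of separate cultures is not stated, and p-values therefore reflect array-to-array spread that may be technical.

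LIN28B had log2 values of 7.51 and 7.53 in knockdown cells, 10.15 and 10.11 in induced mock cells, and 10.02 and 9.85 in mock cells not induced. The knockdown thus held 18.7% of the level without induction (log2 difference -2.42, SE 0.078, limma adjusted p = 5.02e-07). The induced arrays did not differ detectably from those without induction in this probe set (0.19, adjusted p = 0.999). Array medians lay between 7.13 and 7.18, and r across probe sets was 0.970 to 0.975 between knockdown and mock arrays, against 0.990 to 0.994 within groups. Of the markers set for the line, KRT18 read 10.02 and 10.00 in knockdown cells and 9.94 and 10.03 in mock cells not induced. VIM fell by 0.18 and NEFL by 0.59, KRT8 rose by 0.38, CDH2 had -0.23 (adjusted p = 0.104), and PAX2 and NEFM were not in the table. Among markers of other cells, 2 of 4 epithelial genes were in the table (EPCAM rose by 0.28, KRT19 fell by 0.59), 1 of 7 fibroblast genes (COL1A1, 0.04, adjusted p = 0.866) and 2 of 6 blood cell genes (CD79A, 0.30, and HBB, 0.12, neither passing). Some of these calls ended when 1 array was left out: KRT8 without either knockdown array or replicate 1 of the uninduced cells (0.24, adjusted p = 0.0986, in the last case), VIM without knockdown replicate 2 or replicate 2 of the uninduced cells (adjusted p = 0.0962 and 0.0673), EPCAM without knockdown replicate 2 (0.0753), and KRT19 without knockdown replicate 1 or replicate 2 of the uninduced cells (0.158 and 0.109).

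The respiratory chain passes electrons from NADH (complex I) and succinate (complex II) through ubiquinone to complex III, from there on cytochrome c to complex IV, and finally to oxygen. Complexes I, III and IV pump protons across the inner mitochondrial membrane, and the ATP synthase uses the gradient to make ATP. Nuclear and mitochondrial genes both supply subunits, so each complex is built with the help of dedicated assembly factors that insert cofactors and stabilise intermediates. In mice, Lin28a has been described as binding mRNAs of oxidative metabolism and raising their translation.

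Against mock cells without induction, knockdown moved members in both directions and by small amounts. Of the 104 members, 20 rose and 15 fell at a Benjamini-Hochberg adjusted p under 0.05 over all genes tested, and 69 did not pass. That is 33.7% of the members, beside 28.0% of all genes (13.5% higher and 14.5% lower), so the share called lies near the background. The median log2 difference was 0.05 for the members and 0.01 for all genes. Sizes were small: the median called rise was 0.25 in members and 0.46 in all genes, the median called fall was -0.46 in members and -0.52 in all genes, no member passed 2-fold, and 255 genes overall (2.20%) did. At a call with a change of at least 0.5, 3 members rose (beside 5.71% of all genes) and 6 fell (beside 7.82%). The largest called falls were in the assembly factor genes SDHAF4, NDUFAF5 and UQCC2, followed by CYCS, which encodes cytochrome c. The largest called rises were in the assembly factor gene SDHAF2, the non-coding RNA NDUFB2-AS1 and the supercomplex factor gene COX7A2L. Replicates were close, with a median SD of the members between arrays of a group of 0.035 in knockdown, 0.040 in induced and 0.051 in uninduced cells, against 0.073, 0.069 and 0.101 for all genes. Members were also brighter, with a median level of 10.41 against 7.16 for all genes. Sizes and spreads were not compared at matched intensity, so they cannot be called particular to this group. The counts depend on how the spread is modelled: without the trend of the spread with intensity, 8 rose and 10 fell. They were 11 and 11 without knockdown replicate 1, and 9 and 13 without knockdown replicate 2. With quantile normalised arrays 17 rose and 18 fell, so which direction held more calls depends on the setting. Of the 35 calls, 15 were kept under each of the alternatives in which the gene could be fitted. Among these, NDUFAF5, ATP5F1D, NDUFB10, NDUFA2, NDUFA6 and UQCRB have probe sets with a suffix for possible cross-hybridisation. The alternative without such sets could not include them.

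**Figure D1:**
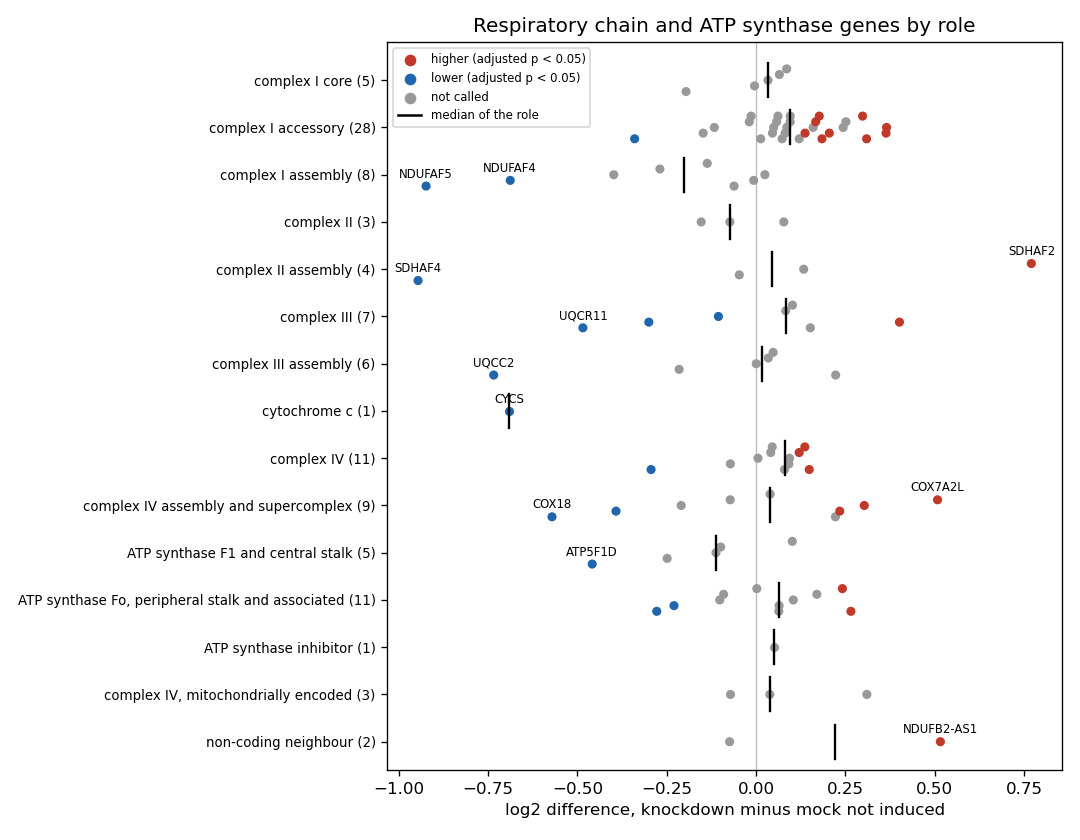
Log2 difference between knockdown and uninduced mock cells (x axis) for each of the 104 members, in rows by role with the number of members in brackets; red points rose, blue points fell, grey points did not pass, and black bars are medians of a role. Complex I accessory subunits lie mostly to the right of 0 and hold 9 red points and 1 blue point, and nuclear complex IV subunits also lie mostly to the right. The points farthest from 0 on the left are the assembly factor genes SDHAF4 at -0.95 and NDUFAF5 at -0.92.

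Position against all 4 mock arrays was counted as well, without a model. Both knockdown arrays lay above every mock array in 38 members (36.5%, beside 27.1% of all genes) and below every mock array in 27 members (26.0%, also 26.0% of all genes), and in 39 members they did not stand apart. Among all genes, 53.1% stood apart one way or the other. All called members but NDUFB2-AS1 were among those that stood apart.

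Promoter sequence was set beside these calls, since nuclear respiratory genes are classic targets of the transcription factors NRF1, GABP (of the ETS family) and YY1. RefSeq promoter windows of 300 bases, 250 before and 50 after each annotated start on GRCh38.p14, were found for 88 of the 104 members and for 9476 of the genes measured. The NRF1 motif (GCGCA, any 1 base, then GCGC), searched on both strands like the others, stood in at least 1 window of 22 members (25.0%), beside 13.6% of the measured genes and 6.98% of all 27305 genes with a window. The ETS motif CCGGAAG stood in 26 members (29.5%), beside 22.3% of measured and 12.2% of all genes, and the YY1 motif AAGATGGCG in 11 members (12.5%), beside 4.81% and 2.14%. No member window held overlapping matches of different motifs. By call, the NRF1 motif stood in 3 of 19 members that rose, 5 of 13 that fell and 14 of 56 that did not pass. It is thus found in members of either direction, and a match describes letters only.

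The 150 bases just before the annotated start are shown for called members that hold the NRF1 motif there, to set fallers and risers side by side, 5′ to 3′ on the strand of the gene with the motif in capitals. The first 4 fell and the last 3 rose. They lie at chr6:70566780-70566929 (+) for SDHAF4, chr6:33711701-33711850 (-) for UQCC2, chr4:73069717-73069866 (-) for COX18, chr19:1605463-1605612 (-) for UQCR11, chr12:95003698-95003847 (-) for NDUFA12, chr12:4648964-4649113 (+) for NDUFA9 and chr3:120596186-120596335 (+) for NDUFB4. SDHAF4 carries the motif 21 bases before its start, UQCC2 48 and COX18 47.
SDHAF4: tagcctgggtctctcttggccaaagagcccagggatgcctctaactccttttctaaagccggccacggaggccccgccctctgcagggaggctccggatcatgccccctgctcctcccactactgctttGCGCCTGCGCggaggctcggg
UQCC2: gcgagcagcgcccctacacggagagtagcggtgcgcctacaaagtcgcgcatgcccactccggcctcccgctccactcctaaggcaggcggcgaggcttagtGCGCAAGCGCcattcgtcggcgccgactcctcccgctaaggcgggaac
COX18: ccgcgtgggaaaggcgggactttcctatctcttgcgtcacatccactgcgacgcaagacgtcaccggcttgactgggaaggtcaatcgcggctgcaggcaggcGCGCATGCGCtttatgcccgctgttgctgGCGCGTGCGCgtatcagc
UQCR11: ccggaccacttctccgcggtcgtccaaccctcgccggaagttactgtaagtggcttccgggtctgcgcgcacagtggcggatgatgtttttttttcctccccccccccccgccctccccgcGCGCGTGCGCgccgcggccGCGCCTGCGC
NDUFA12: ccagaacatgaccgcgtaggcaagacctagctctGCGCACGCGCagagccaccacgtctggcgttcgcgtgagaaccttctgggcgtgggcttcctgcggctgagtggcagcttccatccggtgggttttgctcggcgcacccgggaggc
NDUFA9: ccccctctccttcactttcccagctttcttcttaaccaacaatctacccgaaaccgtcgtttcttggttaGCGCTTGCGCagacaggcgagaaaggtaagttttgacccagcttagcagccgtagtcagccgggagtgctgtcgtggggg
NDUFB4: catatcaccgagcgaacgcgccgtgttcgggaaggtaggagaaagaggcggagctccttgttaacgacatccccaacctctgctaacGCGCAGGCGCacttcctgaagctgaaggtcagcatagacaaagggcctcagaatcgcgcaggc

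Complex I, the NADH dehydrogenase, is the largest group of members. Of its 33 subunit genes in the table, 9 rose, 1 fell and 23 did not pass, with a median log2 difference of 0.09, and 26 of the 33 differences were above 0. So were 9 of 11 in the nuclear subunit genes of complex IV (median 0.08) and 5883 of 11584 over all genes. Of all genes, 13.5% rose and 14.5% fell, and the 11 nuclear subunit genes of complex IV held 3 rises, so rises were no larger a share in complex I than there. With quantile normalised arrays 7 rose and 2 fell, with centred arrays 12 rose and 1 fell, and without the intensity trend 4 rose and 1 fell. With only probe sets that carry no suffix for related transcripts, 19 of the 33 genes were fitted, of which 4 rose and 0 fell. Without knockdown replicate 1 there were 5 rises and without knockdown replicate 2 there were 4, each with 1 fall. All 9 rises and the 1 fall were in accessory subunits, which surround the catalytic core and make up 28 of the 33 genes. With so few core genes, the 2 kinds of subunit were not compared. The 5 core subunit genes, which carry the flavin, the iron-sulphur clusters and the quinone site, ranged from -0.20 (NDUFV1) to 0.09 (NDUFS3) and none passed.

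NDUFS4, an accessory subunit of the NADH-binding module, had log2 values of 10.15 and 10.14 in knockdown cells, 9.78 and 9.76 in induced mock cells, and 9.81 and 9.75 in uninduced mock cells. The knockdown arrays lay above all mock arrays, and the difference from uninduced cells was 0.37 (SE 0.06, adjusted p = 0.00188). NDUFA6, a subunit of the LYR family that holds the acyl carrier protein, read 9.87 and 9.81 in knockdown cells, 9.55 and 9.48 in induced cells, and 9.51 and 9.44 in uninduced cells, with a rise of 0.36 (adjusted p = 0.00316). NDUFA2, also of the NADH-binding module, read 11.86 and 11.89 in knockdown cells, 11.57 and 11.56 in induced cells, and 11.54 and 11.59 in uninduced cells, a rise of 0.31 (SE 0.04, adjusted p = 0.000686). In each of these genes both knockdown arrays lay above all mock arrays, while induced and uninduced values overlapped, and the calls held with each array left out. NDUFA5 rose by 0.30, with adjusted p = 0.0589 without knockdown replicate 2. NDUFAB1, the mitochondrial acyl carrier protein, rose by 0.21 and held its call with each array left out, though not without the intensity trend (adjusted p = 0.125).

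Smaller rises in complex I were seen in NDUFA9 (0.18), which sits where the peripheral arm meets the membrane, in NDUFA12 (0.18), and in the membrane arm subunits NDUFB11 (0.17) and NDUFB4 (0.14). Each of these calls ended without knockdown replicate 1 and without knockdown replicate 2, with adjusted p between 0.0514 and 0.204. Those of NDUFA12 and NDUFB4 also ended without replicate 2 of the uninduced cells (0.0957 and 0.0864), and that of NDUFB11 without replicate 1 (0.109).

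The exception was NDUFB10, an accessory subunit of the membrane arm. It read 10.50 and 10.65 in knockdown cells, 10.90 and 10.86 in induced mock cells, and 10.93 and 10.90 in uninduced mock cells. It fell by 0.34 (SE 0.06, adjusted p = 0.00268), and its knockdown arrays lay below all mock arrays. Its only probe set carries a suffix for possible cross-hybridisation, so the fit without such sets did not include it. NDUFB8, a membrane arm subunit with 2 probe sets in the table, had 0.12 in the brighter set (adjusted p = 0.0708) and -0.03 in the other.

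Assembly factor genes changed in both directions and held the largest single changes. Of 27 such genes in the table, including COX7A2L as a supercomplex factor, 6 fell, 4 rose and 17 did not pass, with a median of -0.05. That is 37.0% called, beside 28.0% of all genes (13.5% higher and 14.5% lower). The median size of their differences was 0.22, against 0.10 in the 72 nuclear genes of subunits, cytochrome c and the ATP synthase inhibitor and 0.21 in all genes. This difference in size between the groups of genes was not tested, nor compared at matched intensity. Replicates also lay farther apart in the assembly factor genes, with a median SD of 0.038 in knockdown, 0.058 in induced and 0.089 in uninduced cells. In the 72 genes it was 0.031, 0.035 and 0.044.

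Among complex I factors, NDUFAF5, which hydroxylates an arginine of the core subunit NDUFS7, had log2 values of 7.59 and 7.51 in knockdown cells, 8.60 and 8.47 in induced mock cells, and 8.55 and 8.40 in uninduced mock cells. It fell by 0.92 (SE 0.10, adjusted p = 0.000185) to 52.7% of the uninduced level. NDUFAF4, which acts in early assembly of the quinone-binding part, read 8.77 and 8.82 in knockdown cells, 9.50 and 9.35 in induced cells, and 9.57 and 9.40 in uninduced cells, a fall of 0.69 (SE 0.08, adjusted p = 0.000426). The knockdown arrays of both genes lay below all mock arrays. The other 6 complex I factors had differences from -0.40 (NDUFAF7) to 0.02 (NDUFAF3), and NDUFAF6 lay near the threshold at -0.27 (adjusted p = 0.0665). None of the 8 rose.

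The 2 strongest movers in opposite directions both serve complex II, succinate dehydrogenase. SDHAF4, which binds the flavin-carrying subunit SDHA before it joins SDHB, read 5.34 and 5.48 in knockdown cells, 6.29 and 6.31 in induced mock cells, and 6.36 and 6.35 in uninduced mock cells. It fell by 0.95 (SE 0.13, adjusted p = 0.000872) to 51.9% of the uninduced level. SDHAF2, needed to attach the flavin to SDHA, read 8.55 and 8.54 in knockdown cells, 7.79 and 7.58 in induced cells, and 7.89 and 7.65 in uninduced cells. It rose by 0.77 (SE 0.11, adjusted p = 0.00106). In both genes the knockdown arrays stood apart from all 4 mock arrays, and both calls held with each array left out. The subunit genes themselves did not pass: SDHA had -0.07 (95% interval -0.245 to 0.0983), SDHC 0.08 and SDHD -0.15, and the factor genes SDHAF1 and SDHAF3 had -0.05 and 0.13.

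Complex III hands electrons to cytochrome c, and its genes split. Of 7 subunit genes, 1 rose and 3 fell, or 57.1% called beside 28.0% of all genes. UQCRB, a subunit near the ubiquinone site, read 11.73 and 11.83 in knockdown cells, 11.46 and 11.35 in induced mock cells, and 11.49 and 11.27 in uninduced mock cells, a rise of 0.40 (SE 0.07, adjusted p = 0.003). UQCR11, a small accessory subunit, read 9.51 and 9.57 in knockdown cells, 10.08 and 10.00 in induced cells, and 10.07 and 9.98 in uninduced cells, a fall of 0.48 (SE 0.06, adjusted p = 0.000678). CYC1, the haem-bearing subunit that passes electrons to cytochrome c, read 10.18 and 10.24 in knockdown cells, 10.46 and 10.47 in induced cells, and 10.50 and 10.51 in uninduced cells, a fall of 0.30 (SE 0.05, adjusted p = 0.00306). In each of these genes the knockdown arrays stood apart from all 4 mock arrays. UQCRQ had -0.11 (adjusted p = 0.0443), a call that ended whichever array was left out (adjusted p = 0.0658 to 0.150) and with centred arrays.

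Of the 6 complex III assembly genes, only UQCC2, a factor for cytochrome b, was called, at -0.73 (SE 0.15, adjusted p = 0.00591). It read 5.44 and 5.73 in knockdown cells, 5.96 and 5.86 in induced mock cells, and 6.38 and 6.25 in uninduced mock cells. The induced cells thus lay between, and against them the difference of the knockdown was -0.33 (adjusted p = 0.136). Without knockdown replicate 1 it was -0.59 against uninduced cells (adjusted p = 0.0565). UQCC6 lay near the threshold at 0.22 (adjusted p = 0.0541).

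CYCS encodes cytochrome c, which carries electrons from complex III to complex IV and, once released into the cytosol, binds APAF1 to start caspase activation. It read 9.18 and 9.14 in knockdown cells, 9.84 and 9.80 in induced mock cells, and 9.82 and 9.88 in uninduced mock cells. The knockdown arrays lay below all mock arrays. The difference was -0.69 (SE 0.06, 95% interval -0.834 to -0.547, adjusted p = 0.000119), which leaves 62.0% of the uninduced level. It held under each alternative, between -0.72 and -0.66 with single arrays left out. Of 11 partners of cytochrome c in apoptosis that were in the table, 1 rose (XIAP, a caspase inhibitor, 0.30, adjusted p = 0.0401), 0 fell and 10 did not pass. That is 9.09% called, beside 28.0% of all genes. The call of XIAP ended without any 1 of 5 arrays (adjusted p = 0.075 to 0.169), the exception being replicate 1 of the uninduced cells.

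**Figure D2:**
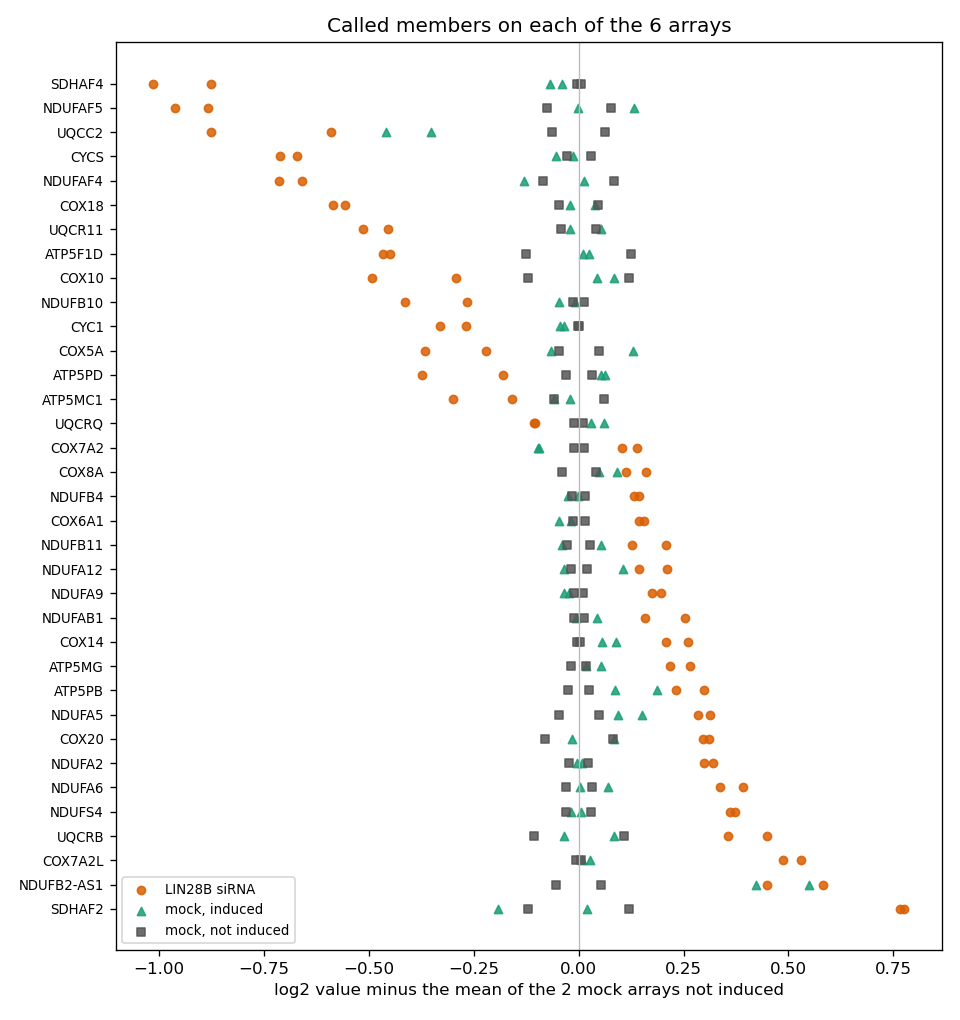
Values of the 35 called members on each of the 6 arrays, as log2 value minus the mean of the 2 uninduced mock arrays (x axis); orange circles are knockdown, green triangles induced mock and grey squares uninduced mock arrays. Mock arrays cluster around 0 in most rows while both knockdown arrays lie to 1 side, and in UQCC2 and NDUFB2-AS1 the induced arrays lie away from the uninduced ones.

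Complex IV, cytochrome c oxidase, had small differences in its nuclear subunit genes, from -0.29 to 0.15. Of 11 nuclear subunit genes, 3 rose, 1 fell and 7 did not pass, or 36.4% called beside 28.0% of all genes. COX6A1 rose by 0.15 (SE 0.03, adjusted p = 0.00589), with values of 13.25 and 13.24 in knockdown cells, 13.08 and 13.05 in induced mock cells, and 13.11 and 13.09 in uninduced mock cells. COX8A rose by 0.14 and COX7A2 by 0.12, and COX5A fell by 0.29. Without the intensity trend none of these 4 passed. The call of COX7A2 ended whichever array was left out (adjusted p = 0.0553 to 0.175), and that of COX8A without any array but replicate 1 of the uninduced cells (adjusted p = 0.071 to 0.225). The call of COX5A ended without knockdown replicate 1 (-0.22, adjusted p = 0.183) and without replicate 1 of the uninduced cells (adjusted p = 0.0859).

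The catalytic subunits of complex IV come from mitochondrial DNA, and their 3 probe sets did not pass. All 3 carry a suffix for possible cross-hybridisation. Those of COX1 and COX2 read near the highest value in the table, 14.27, and whether sets this bright can register a change was not tested. COX1 read 13.35 and 13.31 in knockdown cells, 13.37 and 13.45 in induced mock cells, and 13.38 and 13.42 in uninduced mock cells, a difference of -0.07 (95% interval -0.151 to 0.00818). COX2 had 0.04 (95% interval -0.0256 to 0.103). COX3 varied between replicates, with 8.88 and 8.54 in knockdown cells, 8.52 and 8.26 in induced cells, and 8.68 and 8.12 in uninduced cells, and had 0.31 (95% interval -0.084 to 0.705). In COX3 the knockdown values overlapped those of uninduced cells and lay just above those of induced cells.

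COX7A2L, a paralog of COX7A2 that tethers complex III to complex IV in supercomplexes, was the protein-coding member with the largest rise after SDHAF2. It read 11.27 and 11.23 in knockdown cells, 10.75 and 10.77 in induced mock cells, and 10.75 and 10.74 in uninduced mock cells. The difference was 0.51 (SE 0.05, adjusted p = 0.000126), while COX7A2 itself had 0.12. COX18, which inserts part of COX2 into the inner membrane, read 7.98 and 7.95 in knockdown cells, 8.58 and 8.51 in induced cells, and 8.49 and 8.58 in uninduced cells, a fall of 0.57 (SE 0.08, adjusted p = 0.0011). In both genes the knockdown arrays stood apart from all mock arrays, and the calls held with each array left out.

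COX10, the farnesyltransferase of haem A synthesis, fell by 0.39 (adjusted p = 0.0277), a call that ended without knockdown replicate 2 (-0.29, adjusted p = 0.185) and without replicate 2 of the uninduced cells (-0.27, adjusted p = 0.116). COX14, which acts with newly made COX1, rose by 0.23 (adjusted p = 0.0720 without knockdown replicate 2). COX20, a chaperone of COX2, had 0.30 in its brighter probe set and 0.14 (adjusted p = 0.427) in the other, and its call ended with the mean of the sets and without any array but replicate 1 of the uninduced cells (adjusted p = 0.0611 to 0.160).

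In the ATP synthase, 2 of 17 genes rose, 3 fell and 12 did not pass, or 29.4% called beside 28.0% of all genes. ATP5F1D, the delta subunit of the central stalk, read 8.36 and 8.34 in knockdown cells, 8.82 and 8.83 in induced mock cells, and 8.68 and 8.93 in uninduced mock cells. It fell by 0.46 (SE 0.09, adjusted p = 0.00582), with all knockdown values below the mock values. The catalytic beta subunit ATP5F1B had -0.11 (adjusted p = 0.0572) and the alpha subunit ATP5F1A -0.10 (adjusted p = 0.088), neither passing. ATP5MG, subunit g of the membrane part, rose by 0.24 (SE 0.04, adjusted p = 0.00164), reading 12.38 and 12.42 in knockdown cells, 12.21 and 12.18 in induced cells, and 12.18 and 12.14 in uninduced cells. ATP5PB, of the peripheral stalk, rose by 0.27, a call that ended without either knockdown array (adjusted p = 0.0685 and 0.130). ATP5PD, also of the peripheral stalk, fell by 0.28, and without knockdown replicate 1 it had -0.18 (adjusted p = 0.256). Its call also ended without either induced array and without replicate 2 of the uninduced cells (adjusted p = 0.0653 to 0.0947). ATP5IF1, the inhibitor of the enzyme, had 0.05 and did not pass. Other members just short of the threshold were the epsilon subunit ATP5F1E (-0.25, limma adjusted p = 0.0659) and the small membrane protein ATP5MK (0.10, adjusted p = 0.0627), and outside the ATP synthase NDUFC1 of complex I (0.24, adjusted p = 0.0632) and UQCR10 of complex III (0.15, adjusted p = 0.0757).

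The genes ATP5MC1, ATP5MC2 and ATP5MC3 encode the same mature c subunit of the rotor ring behind different import sequences, so their transcripts feed a single protein pool. ATP5MC1 read 10.22 and 10.36 in knockdown cells, 10.50 and 10.46 in induced mock cells, and 10.46 and 10.58 in uninduced mock cells, and fell by 0.23 (adjusted p = 0.03). That call ended without knockdown replicate 1 (-0.16, adjusted p = 0.217) and without replicate 2 of the uninduced cells (adjusted p = 0.118). ATP5MC2 had 0.06 (95% interval -0.145 to 0.273) and ATP5MC3 0.00 (95% interval -0.0878 to 0.0926). The probe sets of ATP5MC1 and ATP5MC2 carry a suffix for possible cross-hybridisation, as do those of 39 members in all.

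The long non-coding RNA NDUFB2-AS1 read 5.46 and 5.59 in knockdown cells, 5.43 and 5.56 in induced mock cells, and 4.96 and 5.06 in uninduced mock cells. The 0.52 called against uninduced cells (adjusted p = 0.0366) was 0.03 against induced cells (adjusted p = 0.912), and the call ended whichever array was left out (adjusted p = 0.0574 to 0.167). NDUFV1-DT had -0.07 and did not pass.

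Knockdown was also set against induced mock cells, with the same knockdown arrays, so the 2 comparisons are not independent. Here 18 members rose, 13 fell and 73 did not pass, or 29.8% called beside 28.4% of all genes (14.0% higher and 14.5% lower). The median was 0.04 for members and 0.01 for all genes. Of the 35 members called against uninduced cells, 27 were called the same way here. The other 8 did not pass. They were UQCC2 and NDUFB2-AS1, described above, and NDUFA5 (0.18), NDUFA12 (0.14), ATP5PB (0.13), COX8A (0.07), COX20 (0.27) and ATP5MC1 (-0.19). In the genes given with values, limma adjusted p lay between 0.0561 (COX20) and 0.311 (COX8A). NDUFAF5 had -0.99, SDHAF4 -0.89, CYCS -0.66, NDUFAF4 -0.63, COX18 -0.58 and UQCR11 -0.50, while SDHAF2 had 0.86, COX7A2L 0.49 and NDUFS4 0.37. Called here and not against uninduced cells were ATP5F1C (0.15), the gamma subunit of the ATP synthase, ATP5MJ (0.18), NDUFB8 (0.15) and UQCC6 (0.23), with adjusted p between 0.0358 and 0.0499. Each of these 4 calls ended without the intensity trend and without either knockdown array, and those of ATP5MJ, NDUFB8 and UQCC6 also without either induced array, as did that of ATP5F1C without induced replicate 2 (adjusted p = 0.0612 to 0.304 for single arrays left out). With centred arrays 30 members rose and 13 fell, so that the share of rises among calls depends on the scaling. Without induced replicate 2, 9 rose and 9 fell, and without knockdown replicates 1 and 2 the rises were 10 and 11.

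Between induced and uninduced mock cells no detectable change was seen in these genes. The LIN28B probe set did not differ detectably between these groups either, so the arrays do not show that its transcript was raised. By limma 0 of 104 members passed, beside 0% of all genes called, and 3 members (2.88%) had an unadjusted p under 0.05, against 344 of all genes (2.97%). The 3 were NDUFB2-AS1 (0.49), UQCC2 (-0.41, SE 0.15) and COX7A2 (-0.10), each with adjusted p = 0.999, and the next by p were NDUFS6 (-0.11), ATP5PB (0.14) and COX4I2 (0.33). COX4I2 lay above 5 only on the induced arrays (5.12 and 5.24). Its place among the deposited probe sets may thus rest on that group, and its difference is no sign of a response. CYCS had -0.03 (95% interval -0.177 to 0.110). The median over members was 0.00 and the median size of difference 0.03, against 0.07 in all genes, which were dimmer at the median.

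Other genes of mitochondrial function were described from lists. Counts in the lists stand beside 28.0% of all genes called (13.5% higher and 14.5% lower), and no list was tested as a set. Of 32 assembly and mRNA factors whose names the symbol rule does not cover, 8 fell, 5 rose and 19 did not pass, with a median of 0.03. LYRM7, a chaperone of the Rieske protein of complex III, fell by 0.81 and CMC1, a partner of new COX1, by 0.68. Among the rises, SURF1 had 0.55, a call that ended without knockdown replicate 2. PET100 had 0.33, a call kept under each alternative. COA1 fell by 0.59 and NUBPL, an iron-sulphur factor of complex I, by 0.56, but without knockdown replicate 1 these had -0.35 and -0.35 and did not pass (adjusted p = 0.204 and 0.223). Their calls ended as well without replicate 2 of the uninduced cells for COA1 (adjusted p = 0.123) and replicate 1 for NUBPL (0.122).

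Of 17 genes of pyruvate dehydrogenase and the citric acid cycle, 6 fell, 1 rose and 10 did not pass, with a median of -0.18. IDH3A, the catalytic subunit of NAD-dependent isocitrate dehydrogenase, read 7.41 and 7.34 in knockdown cells, 8.74 and 8.70 in induced mock cells, and 8.87 and 8.64 in uninduced mock cells. It fell by 1.38 (SE 0.10, adjusted p = 3.76e-05) to 38.4% of the uninduced level. IDH2 fell by 0.64, DLD, a subunit shared by several dehydrogenase complexes, by 0.56, and OGDH by 0.54 (adjusted p = 0.0602 and 0.0629 without knockdown replicates 1 and 2).

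Of 16 genes of mitochondrial biogenesis and DNA expression, 3 fell, 0 rose and 13 did not pass, with a median of -0.12. TFB1M, a methyltransferase of mitochondrial ribosomal RNA, fell by 0.89, the transcription factor YY1 by 0.65 and the coactivator PPARGC1B by 0.55. The call of PPARGC1B ended without either knockdown array and without replicate 2 of the uninduced cells (adjusted p = 0.0973 to 0.102). The transcription factor genes NRF1 (-0.07) and GABPA (0.30, adjusted p = 0.0883) and the mitochondrial DNA packaging gene TFAM (-0.15, adjusted p = 0.138) did not pass.

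Of 15 mitochondrial chaperone and protease genes, 7 fell, 1 rose and 7 did not pass, with a median of -0.17. OMA1, a stress-activated protease of the inner membrane, fell by 1.64 (SE 0.11, adjusted p = 2.59e-05), the chaperone TRAP1 by 0.76, HSPA9, the motor of import, by 0.51 and the prohibitin PHB1 by 0.41. Of 23 import genes, 8 fell, 3 rose and 12 did not pass, with a median of -0.09: TIMM8B fell by 0.74, CHCHD4, which oxidises imported small proteins, by 0.61 and the channel TOMM40 by 0.61, and TIMM17B rose by 0.39.

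Of 13 coenzyme Q genes, 2 fell, 1 rose and 10 did not pass, with a median of -0.06. COQ10B rose by 0.73 and COQ3 fell by 0.41, and PDSS1 fell by 0.29, a call that ended without knockdown replicate 1 (adjusted p = 0.167) and without replicate 1 of the uninduced cells (adjusted p = 0.0618). Of 6 carrier and channel genes that exchange ATP, phosphate and metabolites, 3 rose, 0 fell and 3 did not pass. SLC25A4 rose by 0.23, the phosphate carrier SLC25A3 by 0.16 and SLC25A5 by 0.10, but SLC25A3 had -0.07 with the mean of its probe sets (adjusted p = 0.703), SLC25A4 lost its call without either knockdown array (adjusted p = 0.0921 and 0.102) and SLC25A5 whichever array was left out (adjusted p = 0.0544 to 0.134).

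**Figure D3:**
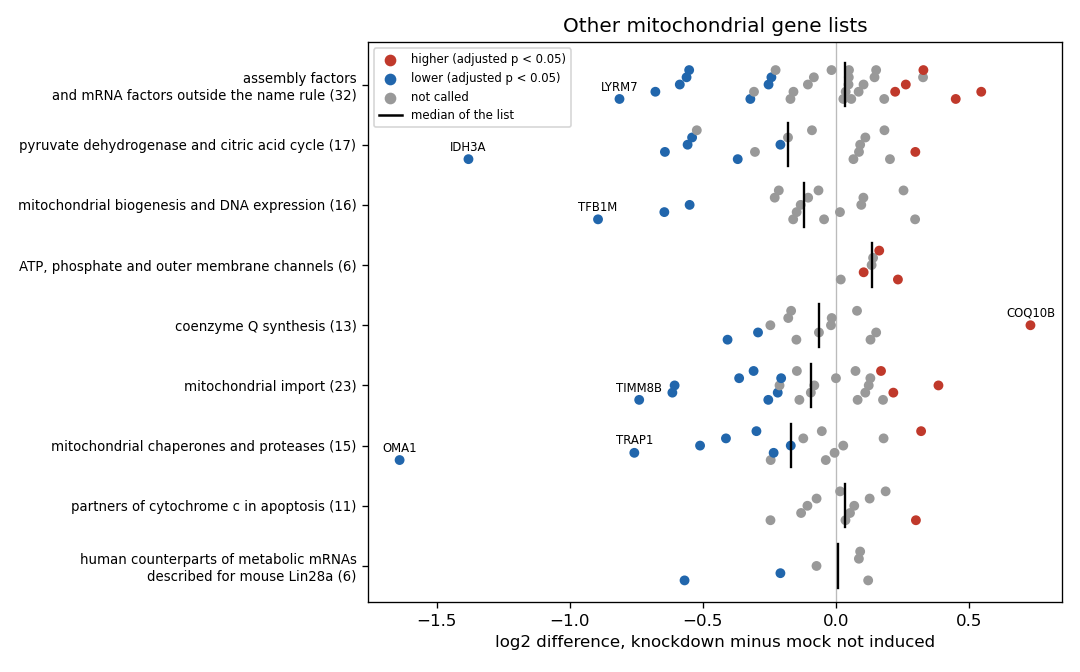
Log2 difference between knockdown and uninduced mock cells (x axis) for genes of 9 other mitochondrial lists, with the number in the table in brackets; red rose, blue fell, grey did not pass, and black bars are medians of a list. The farthest points are falls, OMA1 at -1.64 and IDH3A at -1.38, and 6 list medians lie between -0.18 and 0.01.

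Human counterparts of 6 mRNAs described for mouse Lin28a were in the table. Of these, 2 fell, 0 rose and 4 did not pass, with a median of 0.01. The phosphofructokinase gene PFKP fell by 0.57 to 67.4% of the uninduced level and PDHA1, of pyruvate dehydrogenase, by 0.21, which did not pass without either knockdown array (adjusted p = 0.0657 and 0.0953). The respiratory chain genes among them, NDUFB3 (0.09), NDUFB8 (0.12) and SDHA (-0.07), and IDH3B (0.09) did not pass.

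**Figure D4:**
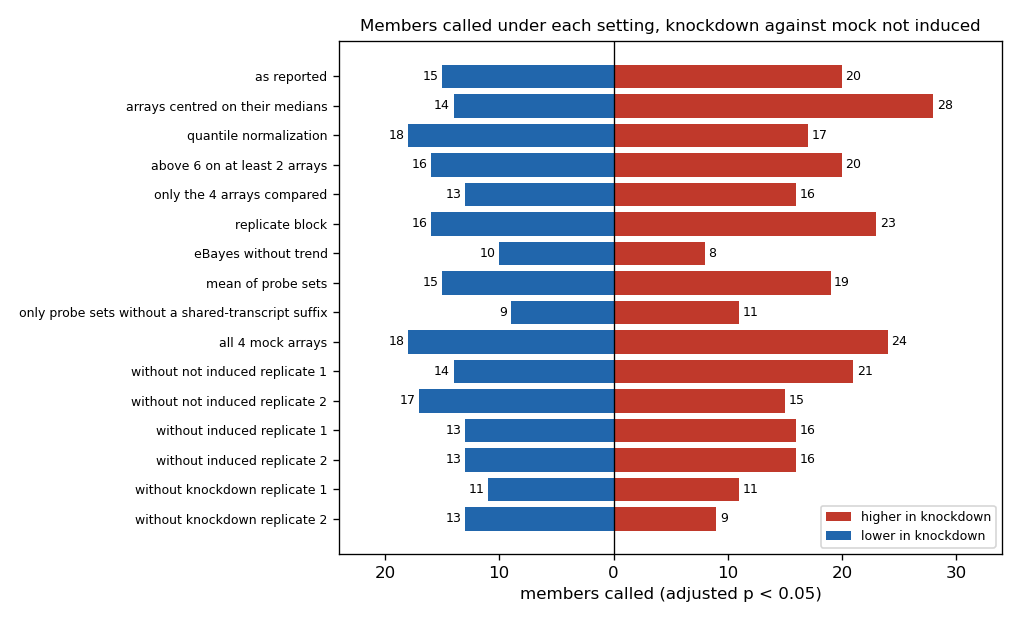
Number of members called in knockdown against uninduced mock cells under each setting, with rises as red bars to the right and falls as blue bars to the left of 0. As reported there were 20 rises and 15 falls, the rises ranging from 8 to 28 and the falls from 9 to 18.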

How the data were processed

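Expression was measured on 6 arrays. The deposited values are log2 values per probe set that the authors made with affy and GCRMA, per the submitters' processing notes; versions are not given in the sources used here. Base 2 is assumed, since the file names none. The table holds 13008 probe sets, part of the array, by a rule not given in the sources used here, and 13007 lay above 5 on at least 2 arrays, so genes low on every array were not analysed. Of these probe sets, 11719 had 1 gene symbol and 609 several, and they were named through the platform annotation and RefSeq identifiers of GRCh38.p14. A filter of a value above 4 on at least 2 arrays removed 0 probe sets.

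All 3 groups entered a single two-sided limma fit (limma 3.58.1, R 4.3.3; lmFit, then eBayes with the spread allowed to follow intensity), with Benjamini-Hochberg adjustment over 11584 genes and a call at an adjusted p under 0.05. The model had 3 residual and 6.73 prior degrees of freedom. SE is the standard error of a log2 difference. The number of arrays limits the precision, and no depth applies. The procedure was tested on simulated data. Alternatives changed the scaling, the filter, the arrays used, the replicate block, the intensity trend and the probe sets. Members, roles and lists were chosen with earlier results of these data known; the roles of COX1, COX2, COX3, NDUFB2-AS1 and NDUFV1-DT were added after the values were seen, as were the positions against all 4 mock arrays and the motifs. Named genes were the called members, up to 15 of largest change in each direction, those called only against induced cells, members with an adjusted p between 0.03 and 0.08, the pair COX7A2 and COX7A2L and the ATP5MC genes, CYCS and LIN28B, the 3 members of smallest p in each direction for induction, and up to 4 called genes of each list; other names, such as COX6A1, NDUFB4, NRF1, GABPA and TFAM, were picked after their values were seen.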

Additional observations from a re-analysis of the deposited data

How the results depend on the processing

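No called member changed sign under an alternative, but the balance of rises and falls did turn. Against uninduced cells it was 20 to 15 as reported, 17 to 18 with quantile normalization, 8 to 10 without the intensity trend, 15 to 17 without replicate 2 of the uninduced cells and 9 to 13 without knockdown replicate 2; against induced cells it was 18 to 13 as reported, 5 to 9 without the trend and 11 to 12 without knockdown replicate 2. Of the 35 members called against uninduced cells, 15 kept their call under each alternative in which they could be fitted, and 17 lost it without the intensity trend. With only probe sets that carry no suffix for related transcripts, 65 members were fitted, of which 11 rose and 9 fell against uninduced cells and 10 rose and 8 fell against induced cells; fewer genes were fitted there. With centred arrays 30 rose against induced cells. With single arrays left out, members higher ranged from 9 to 21 and lower from 11 to 17 against uninduced cells, and from 9 to 25 and 9 to 16 against induced cells; the lone array was then assumed to vary like the others. The median over members moved by less than the spread between arrays. The reported fit did not pair arrays by replicate number. Same-numbered deviations correlated across genes at 0.18 (uninduced and induced), -0.06 (uninduced and knockdown) and 0.02 (induced and knockdown). Whether same-numbered arrays share an effect cannot be told from these values. With the replicate block 23 rose and 16 fell against uninduced cells, and COX8A and UQCRQ lost their calls. For causes other than the number of genes or arrays fitted, the cause was not tested. Every group had 2 arrays, too few to look for an outlying array within a group.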
